A study of Homo sapiens with 30 samples.

Results

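The mitosis and spindle genes are a set of 49 genes that was fixed by gene symbol, from the kinases and cyclins that start mitosis to the proteins that complete cytokinesis. All 49 symbols were found among the 23710 genes of the series. Cells enter mitosis when cyclin B and CDK1 become active together. The spindle then attaches to kinetochores under the watch of the spindle checkpoint, and the anaphase-promoting complex, with its activator CDC20, releases the sister chromatids. Most of these genes are transcribed in the G2 and M phases of the cycle. In bulk samples, fewer dividing cells and less RNA per dividing cell cannot be told apart.

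The 30 samples were RNA-seq libraries from human prostate cancer cell lines derived from LNCaP, in 10 conditions with 3 replicates each. V16D is a castration-resistant derivative of LNCaP. MR49F was derived from LNCaP cells that grew under chronic enzalutamide in castrated mice. Both lines were grown in full serum (10% FBS) and received vehicle or 10 μM enzalutamide, an antiandrogen drug, for 24 h. MR49F cells were also kept in 10% charcoal-stripped serum, which is depleted of steroids, for 72 h and afterwards received, for 24 h, vehicle, 10 μM enzalutamide, 1 nM dihydrotestosterone (DHT, a natural androgen), 500 nM JQ-1 (an inhibitor of BET bromodomain proteins), or JQ-1 together with either ligand. By the study's methods MR49F cells were routinely maintained in 10 μM enzalutamide, and by the labels both lines were grown without it for 72 h before plating and 24 h after, so that MR49F vehicle samples are cells taken off the drug. Each line is 1 cell line, and the study calls the replicates biological without saying whether they came from separate cultures, so p-values measure only the spread between these samples, which may be technical.

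Full-serum libraries held 13170504 to 21154962 reads assigned to genes (73.0 to 77.8% of counted reads, n = 12), and stripped-serum libraries held 982130 to 1813262 (5.13 to 7.66%, n = 18). Counts also differed where genes overlap on opposite strands. In 58 pairs of overlapping genes on opposite strands, in which 1 gene was quiet in full serum and its partner was high, the quiet gene had a median of 0.167 CPM (reads scaled to the library's total on genes) in full and 4.52 CPM in stripped serum, whereas its median FPKM (fragments per kilobase of transcript, scaled to the mapped reads) was 0.0839 and 0.0585. In stripped serum 23 of the 58 quiet genes were at 10 CPM or more and 11 were above their partner. Stripped-serum counts may therefore hold reads of the other strand, and how far this and the low depth each bear on the count fit was not tested. Counts and FPKM come from the same libraries, so a call in both is not independent evidence. Exons of 11 members overlap a gene of the other strand. For NCAPG (with LCORL) and CCNA2 (with EXOSC9) the ratio of CPM to FPKM was 3.88 and 3.26 times as high in stripped as in full serum. For SMC4, which had the most overlapping bases, it was 0.992 times as high. Members without such overlap differed too, such as MKI67 (1.82) and ECT2 (0.485). KIFC1 is reported by FPKM alone, since its counts were very low in both sera. It had 0 reads in stripped-serum vehicle samples against 3.90 FPKM. In full-serum MR49F vehicle samples it had 0.142 CPM against 19.1 FPKM. A fit on log2(FPKM + 1) therefore stands beside the fit on counts in stripped serum, and fold changes on that scale understate those of low genes. The luminal prostate markers KLK3 and KRT8 were at 1 FPKM or more in every sample, and all 3 basal and all 3 endothelial markers were under 1 FPKM. Of other cell types, the leukocyte marker CD68 was at 1.31 to 6.42 FPKM, the neuroendocrine marker SYP reached 1.42 FPKM in full and 9.55 FPKM in stripped serum, and the fibroblast markers COL1A1 and LUM reached 1.77 and 1.63 FPKM; their part in the results was not tested.

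In V16D cells with vehicle the highest member was CDK1, the kinase that drives entry into mitosis, with 177, 177 and 182 FPKM in the 3 samples. PTTG1 (securin, the inhibitor of separase) followed at a mean of 127 FPKM. NUSAP1, which bundles spindle microtubules, and SMC4, a condensin subunit, came next, and their samples overlapped. The lowest was ESPL1 (separase, the protease that cuts cohesin) at 7.40 FPKM. Of the 48 neighbouring pairs in this order, 20 had samples that did not overlap. The median member was at 34.0 FPKM, and the 49 members made 0.408% of the summed FPKM of all genes.

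**Figure D1:**
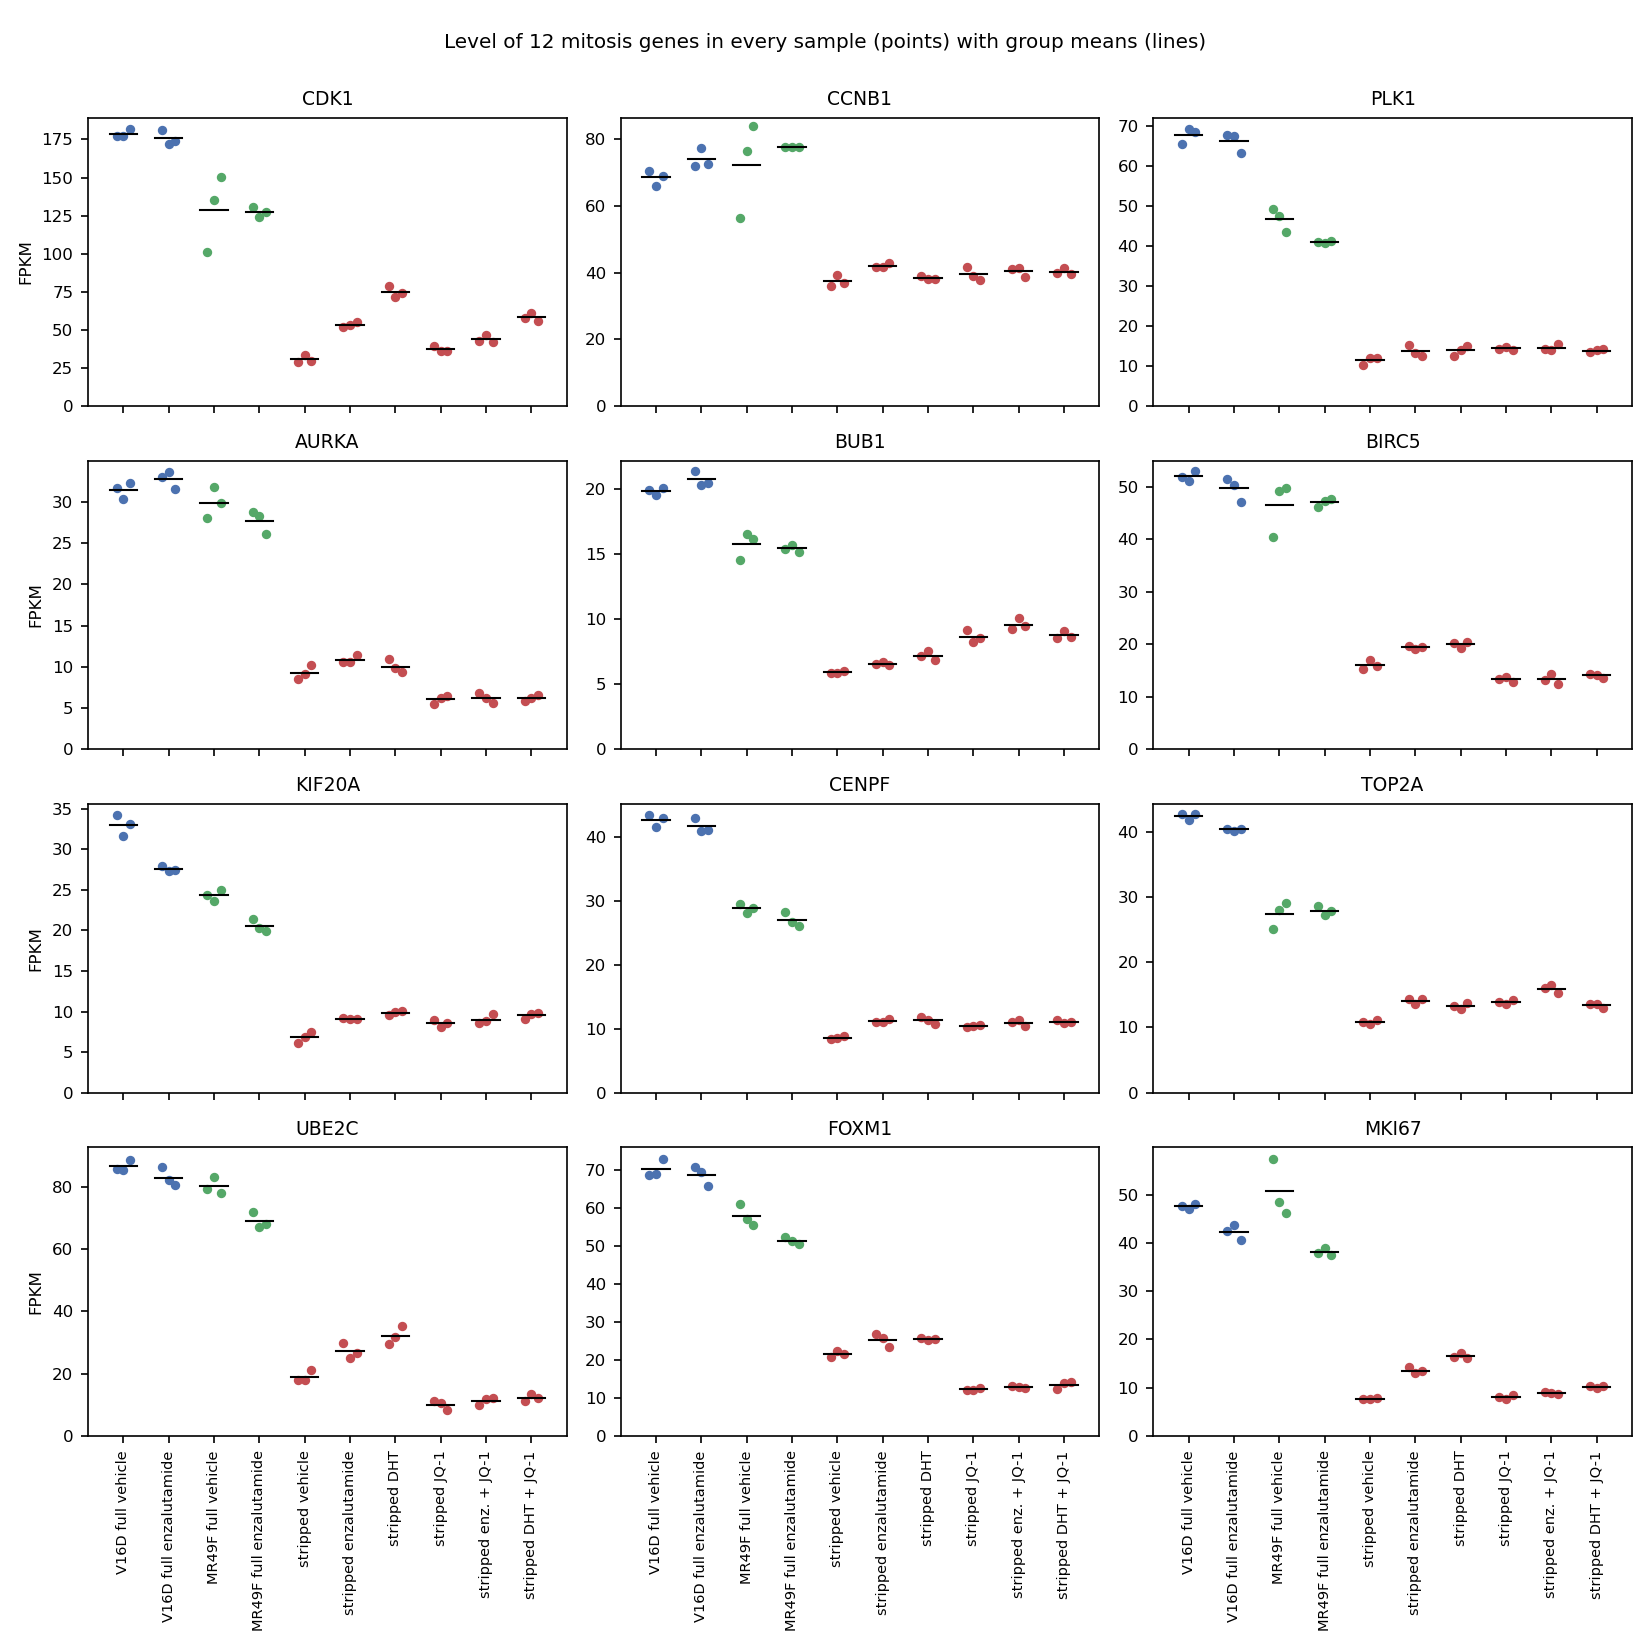
FPKM (vertical axis, starting at 0) of 12 members in each of the 10 conditions (horizontal axis). Points are the 3 samples of a condition and lines are their means; CDK1 is at 179 FPKM in V16D vehicle and 30.7 FPKM in MR49F stripped-serum vehicle samples.

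The members share promoter letters that their choice did not use. Promoters of G2 and M phase genes are known to hold the cell cycle homology region (CHR), bound by the DREAM and MuvB complexes, near CCAAT boxes bound by NF-Y. A RefSeq window of 250 bases before to 50 after the transcription start (build GRCh38.p14) was found for 42 members. A CHR, searched as TTTGAA or TTCGAA on both strands, was present in 34 of them (81.0%), against 19.5% of the 27305 genes with a window and 50.9% of 110 other mitosis genes (spindle, centromere, kinetochore and cell cycle factors outside the 49). A CCAAT box, searched as CCAAT on both strands, was present in 32 (76.2%), against 39.7% of all genes and 65.5% of the other mitosis genes. Both were present in 26 members (61.9%) and in 9.02% of all genes. An E-box, searched as CACGTG, was present in 5 members (11.9%, against 8.77% of all genes and 12.5% of those tested in V16D cells), and an E2F site, searched as TTTCGCGC or TTTGGCGC on both strands, in CDK1 and NUSAP1 (4.76%, against 1.40% of all genes and 10% of the other mitosis genes). A match describes letters only, and CHR and CCAAT matches can share a base, as they do in MKI67.

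The 5 windows shown belong to members whose responses are described in detail: CDK1 (chr10:60778228-60778527, plus strand), PLK1 (chr16:23678639-23678938, plus strand), BUB1 (chr2:110678014-110678313, minus strand), MKI67 (chr10:128126374-128126673, minus strand) and KIF20A (chr5:138178862-138179161, plus strand). They read 5′ to 3′ on the gene's strand, with CHR and CCAAT matches of either strand in capitals.
CDK1: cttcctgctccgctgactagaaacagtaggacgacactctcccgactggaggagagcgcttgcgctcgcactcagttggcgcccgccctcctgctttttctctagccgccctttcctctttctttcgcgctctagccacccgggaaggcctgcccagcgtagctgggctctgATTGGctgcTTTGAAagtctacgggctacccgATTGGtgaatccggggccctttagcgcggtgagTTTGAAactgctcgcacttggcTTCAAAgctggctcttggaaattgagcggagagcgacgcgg
PLK1: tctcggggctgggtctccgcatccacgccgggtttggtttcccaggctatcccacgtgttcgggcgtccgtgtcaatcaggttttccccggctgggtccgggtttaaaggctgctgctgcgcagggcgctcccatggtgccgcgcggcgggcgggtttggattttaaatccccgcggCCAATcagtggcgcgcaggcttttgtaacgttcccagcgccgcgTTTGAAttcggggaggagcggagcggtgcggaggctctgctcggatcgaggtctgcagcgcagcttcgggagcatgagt
BUB1: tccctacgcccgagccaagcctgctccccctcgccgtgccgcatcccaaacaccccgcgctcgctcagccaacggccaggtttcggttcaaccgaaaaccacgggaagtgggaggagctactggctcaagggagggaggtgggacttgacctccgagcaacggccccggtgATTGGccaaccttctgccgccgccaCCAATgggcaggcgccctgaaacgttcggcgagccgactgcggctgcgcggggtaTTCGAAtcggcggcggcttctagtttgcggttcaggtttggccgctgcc
MKI67: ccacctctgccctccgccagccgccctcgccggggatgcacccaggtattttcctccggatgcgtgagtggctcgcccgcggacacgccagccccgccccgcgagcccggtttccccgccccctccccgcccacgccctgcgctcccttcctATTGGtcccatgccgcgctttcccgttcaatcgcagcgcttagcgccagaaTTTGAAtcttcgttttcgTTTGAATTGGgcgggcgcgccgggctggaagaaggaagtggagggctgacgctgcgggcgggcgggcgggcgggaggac
KIF20A: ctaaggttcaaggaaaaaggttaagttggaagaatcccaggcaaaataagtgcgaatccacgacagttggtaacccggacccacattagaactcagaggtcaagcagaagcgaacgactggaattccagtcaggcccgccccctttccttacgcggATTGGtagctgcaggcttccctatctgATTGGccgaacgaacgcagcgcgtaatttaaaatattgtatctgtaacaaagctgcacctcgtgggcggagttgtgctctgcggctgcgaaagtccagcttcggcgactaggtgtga
Counted from the start site, a CHR began at -29 in PLK1 and MKI67 and at -13 in CDK1, each with a CCAAT box upstream of it. KIF20A held 2 CCAAT boxes, at -94 and -67, and no CHR in this window.

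Enzalutamide lowered members slightly in V16D cells, and the number called depended on the fit. By edgeR on the 6 samples compared, 32 of the 48 members tested fell and 1 rose, where 19.3% of the 14079 genes tested fell and 18.2% rose (adjusted p of 0.05 or less over all genes, here and throughout). The median log2 fold change was -0.10 over the members and 0.00 over all genes, so the median member was 6.68% lower, at a biological coefficient of variation between replicates of 1.83%. All 5 condensin and chromosome structure genes and all 4 chromosomal passenger complex genes fell, as did 4 of 5 kinesins tested and 3 of 8 entry kinases, cyclins and phosphatases. A single fit over all groups called 13 members and an equal-variance test 8.

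KIF20A, a kinesin of the central spindle, changed most. It stood at 163, 149.6 and 155 CPM with vehicle and at 129, 126 and 128 CPM with enzalutamide, a log2 fold change of -0.29 ± 0.03 (SE, n = 3 a group; edgeR adjusted p = 2.3e-18). The groups did not overlap. The checkpoint protein MAD2L1 (-0.23), the phosphatase CDC25C, which activates CDK1 (-0.23), the cytokinesis scaffold ANLN (-0.20) and MKI67, the Ki-67 proliferation antigen (-0.20), followed. MKI67 stood at 794, 776 and 786 CPM with vehicle and 685, 705 and 664 CPM with enzalutamide, again without overlap. CCNB1, which encodes cyclin B1, was the member that rose, by 0.08 on the log2 scale (edgeR adjusted p = 0.017), and its samples overlapped (202, 188 and 195 CPM, then 200.4, 215 and 203 CPM).

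CDK1 stood at 438, 435 and 444 CPM with vehicle and 435, 412 and 423 CPM with enzalutamide, a log2 difference of -0.05 that did not pass (edgeR adjusted p = 0.061). AURKA, the spindle pole kinase, and BUB1, a checkpoint kinase, did not pass either. TOP2A, which untangles DNA, fell from 342, 334 and 337 CPM to 315, 313 and 319 CPM, and BIRC5 (survivin, a passenger complex subunit) fell from 184, 179.6 and 185 CPM to 177, 172 and 163 CPM. Neither pair of groups overlapped. The FPKM fit called 12 of 49 members lower and 0 higher, where 12.7% of the 12497 genes tested were lower and 17.7% higher, and 11 of the 12 were also called by counts in the same direction. It called 7 without enzalutamide or vehicle replicate 2, 6 without enzalutamide replicate 3 or vehicle replicate 1, and 4 without vehicle replicate 3.

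Of the 139 other mitosis genes, 72 fell and 3 rose in V16D cells. CENPN, which binds the centromere nucleosome, fell from a mean of 315 to 134 CPM, a log2 fold change of -1.23 ± 0.03. The kinesin KIF22 (-0.73) and the repressor E2F7 (-0.51) fell too.

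In MR49F cells in full serum, 12 members fell with enzalutamide and 0 rose of 48 tested, where 4.62% of the 13927 genes tested fell and 3.86% rose. The members' median log2 fold change was -0.14, and the coefficient of variation between replicates was 5.25%. The 12 included FOXM1, the transcription factor that switches on many of these genes, PLK1 (Polo-like kinase 1), the spindle assembly factor TPX2, and HMMR, NUSAP1 and ANLN. None of the 10 checkpoint and kinetochore members passed.

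MKI67 had the largest fall, from 971, 786 and 741 CPM to 607, 621 and 600.4 CPM (log2 fold change -0.44 ± 0.08, edgeR adjusted p = 0.0070). INCENP, the scaffold of the passenger complex, fell from 219, 183 and 167 CPM to 139, 147 and 136 CPM. KIF20A fell from 119, 111 and 116 CPM to 98.9, 92.9 and 91.1 CPM. In none of the 3 did the groups overlap. The first vehicle replicate stood apart over genes at large, not only members. Its counts differed from replicates 2 and 3 with a chi-square per degree of freedom of 9.9 and 11.6. All other replicate pairs of the series were at 1.1 to 2.8. It held the highest vehicle value of MKI67 and INCENP, and it also enters the comparisons of lines and of sera. CDK1 had 258, 329 and 360.4 CPM in the vehicle samples and 311, 295 and 302 CPM with enzalutamide. CCNB1 had 166, 214 and 233 CPM and 214, 212 and 213 CPM. Neither passed. The count of members called rested on single libraries: it was 3 without enzalutamide replicate 1 or 2, 0 without enzalutamide replicate 3, 6 without vehicle replicate 2 and 26 without vehicle replicate 1. The FPKM fit called 4 lower and 0 higher, where 2.09% of the 12496 genes tested were lower and 2.51% higher; it called 10 without vehicle replicate 1 and 0 without any other library.

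**Figure D2:**
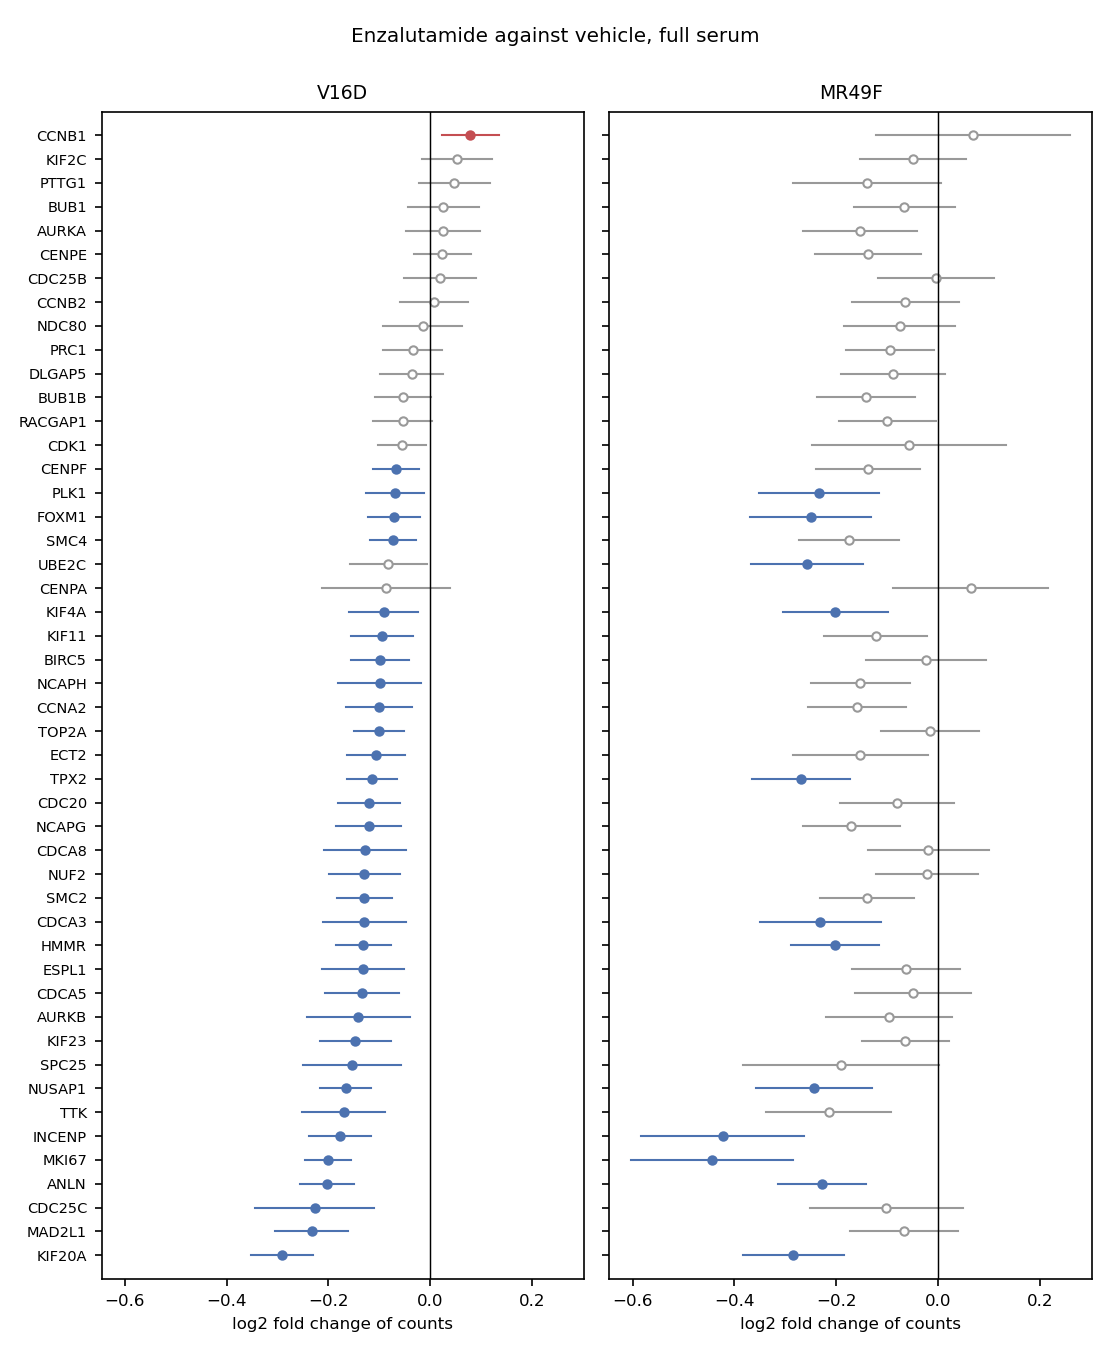
Log2 fold change of counts (horizontal axis), enzalutamide against vehicle in full serum, for the members (vertical axis) in V16D (left) and MR49F (right). Bars are 95% intervals; filled blue and red points passed the test, lower and higher, and open grey points did not; 33 members passed in V16D and 12 in MR49F.

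These comparisons share no samples. Of the 33 members called in V16D and the 12 called in MR49F, 11 were called in both (33.3% of the first list and 91.7% of the second). Below 0 in both lines were 39 members. Over all genes, 5276 of 14079 were called in V16D and 1181 of 13927 in MR49F. How many of all genes were called in both, or were below 0 in both, was not counted. Whether the members' overlap exceeds that of all genes is therefore not known. The difference in response between the lines was tested as an interaction. By edgeR it called 0 of 48 members, with 10 at an unadjusted p under 0.05, where 4.19% of the 14471 genes tested were called higher and 2.76% lower. By limma on FPKM it also called 0 of 49, with 9 at an unadjusted p under 0.05, where 3.64% of the 13011 genes tested were higher and 2.40% lower. By counts, 6, 1 and 7 members passed without MR49F vehicle replicates 1, 2 and 3.

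With vehicle, MR49F cells had lower levels than V16D cells in 35 of 48 members and higher levels in 3, where 31.8% of the 14013 genes tested were lower and 31.9% higher. The members' median log2 fold change was -0.38. All 10 checkpoint and kinetochore members, all 5 spindle assembly members and all 3 cytokinesis members were lower. The checkpoint kinase TTK differed most, with 16.7, 17.2 and 18.00 FPKM in V16D and 7.25, 8.02 and 8.18 FPKM in MR49F, a log2 fold change in counts of -1.15 ± 0.06 (edgeR adjusted p = 1.2e-08). DLGAP5 (-0.82), HMMR (-0.75) and the NDC80 complex subunits NUF2 (-0.74) and SPC25 (-0.71) followed. The 3 higher members were INCENP (0.38) and the kinesins KIF4A (0.26) and KIF23 (0.21), and the groups did not overlap in any of them. Among the 10 that did not pass were CCNB1, AURKA, AURKB, CDC20 and MKI67. The FPKM fit called 3 of 49 higher and 32 lower, where 32.7% of the 12565 genes tested were higher and 29.9% lower.

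The study describes the stripped-serum samples apart from the full-serum samples, with vehicle samples of their own. Serum and experiment therefore cannot be told apart, and their levels are given with no test. With vehicle, all 49 members were lower in stripped than in full serum in MR49F cells, and no member's samples overlapped, where 39.5% of the 11594 genes at 1 FPKM or more in both sera were lower without overlap. The median member was 3.51-fold lower, whereas the median over those genes was 1.02-fold lower. MKI67 differed most, with 57.4, 48.5 and 46.2 FPKM in full and 7.65, 7.57 and 7.91 FPKM in stripped serum (6.58-fold). CCNB1 differed least, with 56.3, 76.3 and 84.05 FPKM in full and 35.9, 39.4 and 36.8 FPKM in stripped serum (1.93-fold). AURKB, the kinase of the passenger complex, was 6.07-fold and ANLN 5.42-fold lower.

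**Figure D3:**
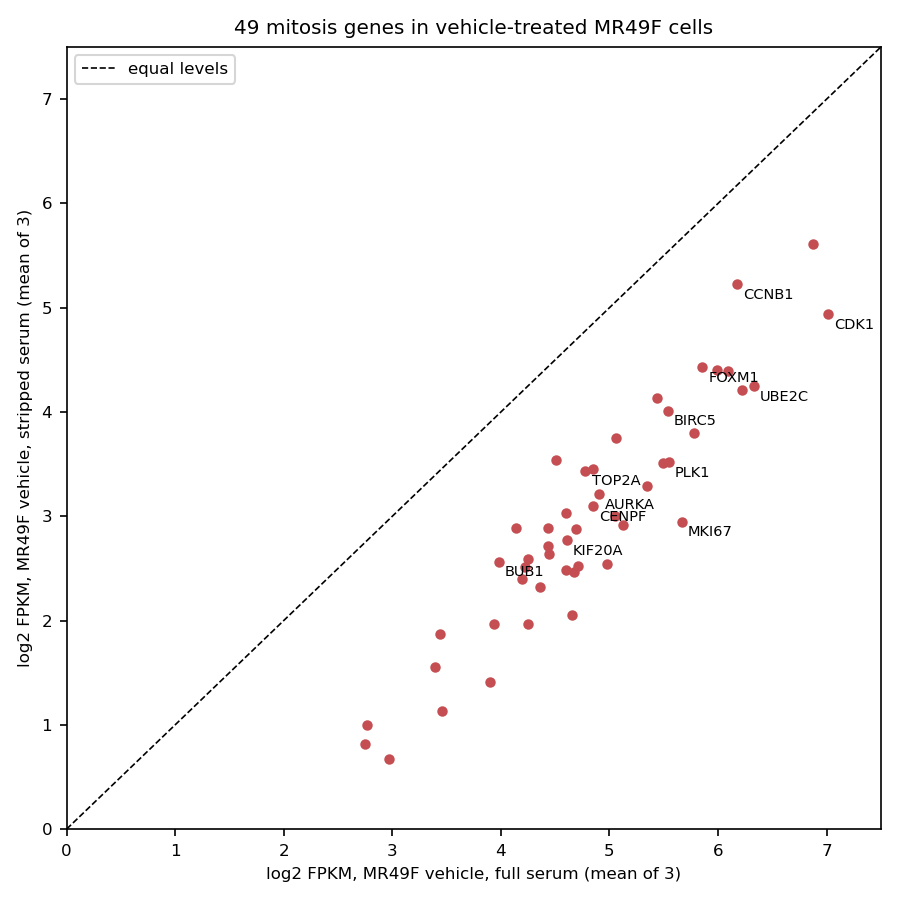
Log2 FPKM of the 49 members in MR49F vehicle samples, full serum on the horizontal and stripped serum on the vertical axis; each point is a member's mean of 3 samples. All 49 were lower in stripped serum.

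In stripped serum enzalutamide raised the members. By limma on FPKM, 46 of 49 rose and 0 fell, where 19.3% of the 12178 genes tested rose and 19.3% fell. By edgeR on counts, 6 of 46 rose and 0 fell, where 4.38% of the 11131 genes tested rose and 2.87% fell. Without vehicle replicate 1 the count fit called 2. The median log2 fold change over the members was 0.35 in both fits. CDK1, MKI67, ANLN, NUSAP1, TPX2 and CENPF were the 6 called in counts, and all were called by FPKM in the same direction.

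CDK1 rose from 29.2, 33.3 and 29.4 FPKM with vehicle to 52.1, 53.5 and 55.1 FPKM with enzalutamide, a log2 fold change of 0.79 ± 0.06 (limma adjusted p = 1.3e-05; in counts 0.74 ± 0.14, edgeR adjusted p = 0.0026). MKI67 rose from 7.65, 7.57 and 7.91 FPKM to 14.2, 13.00 and 13.3 FPKM. AURKB rose from 3.88, 4.79 and 3.75 FPKM to 8.13, 7.58 and 7.86 FPKM. None of these groups overlapped, but AURKB did not pass in counts (0.96, edgeR adjusted p = 0.25), where it had a mean of 9 reads with vehicle. MAD2L1 (0.77) and CDCA5 (sororin, which protects cohesion, 0.74) rose by FPKM as well.

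At the other end, CCNB1 rose by 0.17 and BUB1 by 0.13 on the log2 FPKM scale. DLGAP5 (0.11), ECT2, which starts the cleavage furrow (0.08), and the phosphatase CDC25B (0.15) did not pass. KIF20A, which fell in full serum, rose from 6.11, 6.86 and 7.47 FPKM to 9.23, 9.02 and 9.06 FPKM. All 10 checkpoint and kinetochore members, all 6 kinesins and all 5 condensin and chromosome structure members rose by FPKM. Of 136 other mitosis genes 92 rose and 3 fell, and CENPN rose from a mean of 11.7 to 57.9 FPKM.

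DHT raised 45 of 49 members and lowered 0 by FPKM, where 28.9% of the 12180 genes tested rose and 43.2% fell. By counts 24 of 45 rose and 0 fell, where 19.4% of the 11004 genes tested rose and 18.1% fell. The members' median log2 fold change was 0.46 by FPKM and 0.44 by counts. CCNB1, CDC25B, AURKA and SPC25 did not pass by FPKM.

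CDK1 had the largest response, from 29.2, 33.3 and 29.4 FPKM to 78.6, 71.3 and 73.95 FPKM. Its log2 fold change was 1.26 ± 0.06 by FPKM (limma adjusted p = 2.8e-07) and 1.40 ± 0.13 by counts (edgeR adjusted p = 7.6e-09). MKI67 rose to 16.4, 17.3 and 16.2 FPKM, and ANLN rose from 5.62, 5.58 and 6.21 FPKM to 12.5, 11.7 and 12.5 FPKM. No groups of these 3 genes overlapped, and AURKB (0.94) and CDCA5 (0.93) rose in both fits as well. CCNB1 differed by 0.04 (95% interval -0.05 to 0.12), with 35.9, 39.4 and 36.8 FPKM before and 38.9, 38.1 and 38.1 FPKM after. Among the other mitosis genes, 95 of 137 rose and 13 fell by FPKM. NCAPD3, a condensin II subunit, rose from a mean of 9.20 to 176 FPKM and CENPN from 11.7 to 159 FPKM.

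**Figure D4:**
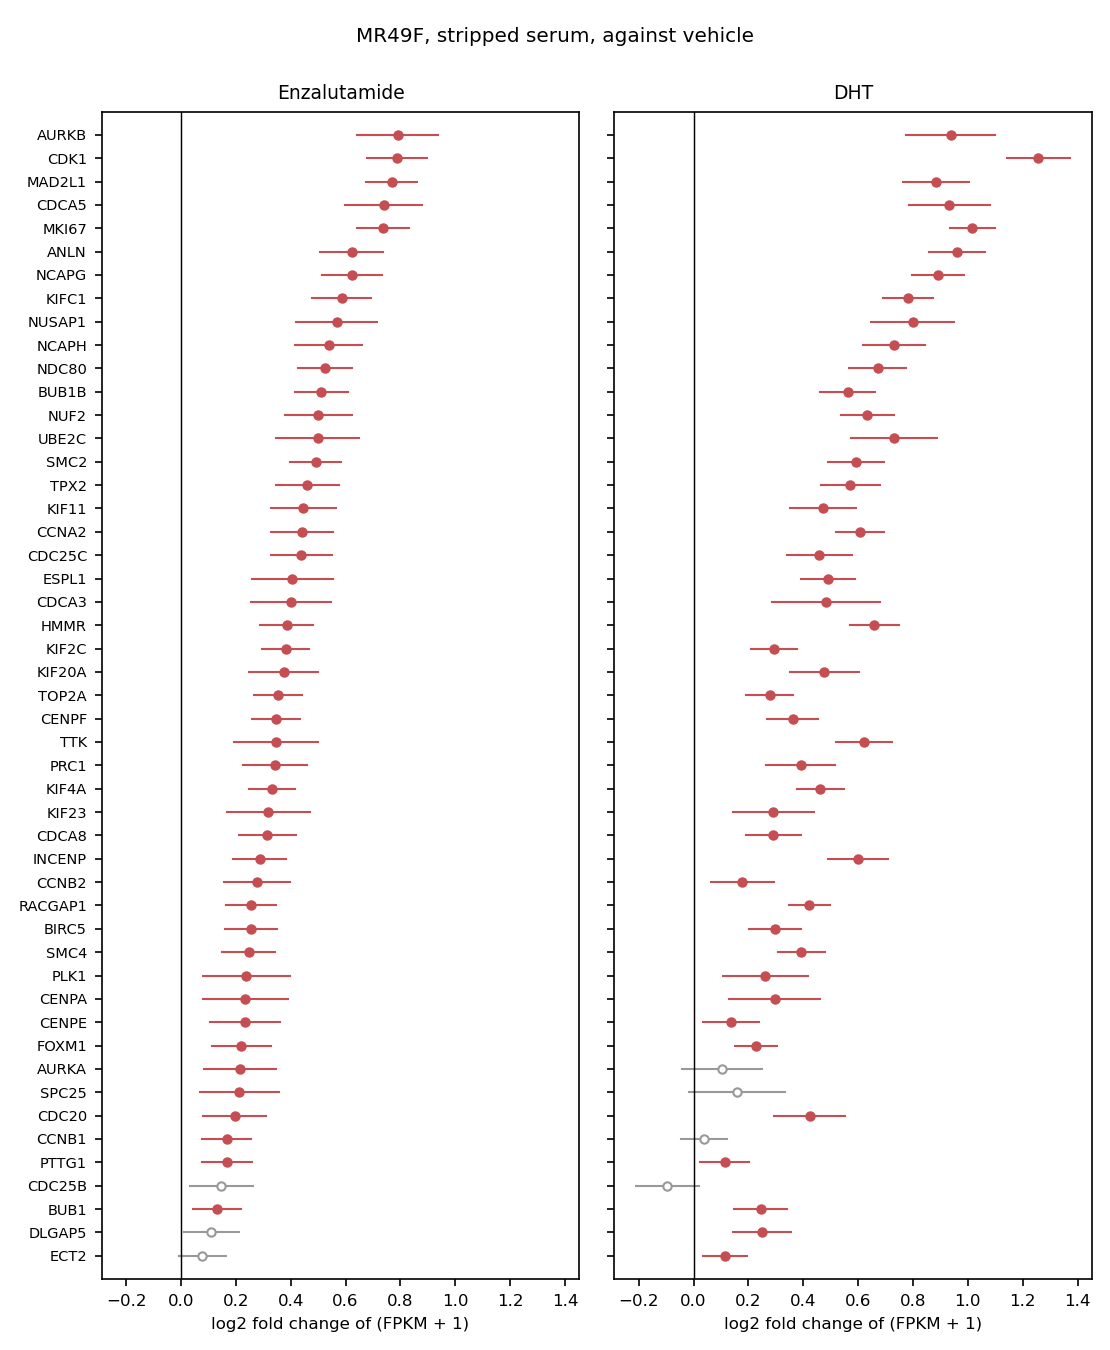
Log2 fold change of (FPKM + 1) (horizontal axis) for the 49 members (vertical axis) in MR49F cells in stripped serum, enzalutamide (left) and DHT (right), each against the same vehicle samples. Bars are 95% intervals; filled points passed and open grey points did not; 46 members rose with enzalutamide and 45 with DHT.

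Since these comparisons share the vehicle samples, the agents were also compared directly. DHT gave higher levels than enzalutamide in 19 members and lower levels in 2 by FPKM, where 20.9% of the 12029 genes tested were higher and 36.5% lower. By counts 5 of 47 were higher (ESPL1, CDK1, HMMR, INCENP and MKI67) and 0 lower, where 10.3% of the 10916 genes tested were higher and 9.13% lower. That count was 3 without replicate 1 of either agent and 2 without replicate 2 of either, and the FPKM count was 12 without enzalutamide replicate 2. CDK1 differed most by FPKM (0.47 ± 0.05, limma adjusted p = 3.8e-05), then ANLN (0.34), INCENP (0.31), MKI67 (0.28) and TTK (0.28), and the groups of these genes did not overlap. CCNB1 (-0.13) and CDC25B (-0.24) were lower with DHT. ESPL1 did not pass by FPKM (0.09, limma adjusted p = 0.34), and its samples overlapped. By counts the share of members that were higher was close to that of all genes.

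The difference between the sera in the enzalutamide response of MR49F cells, stripped minus full, was tested with limma on FPKM over 12 samples, a comparison added after the data had been seen. It passed as higher in 40 of 49 members and as lower in 0, where 14.9% of the 12981 genes tested were higher and 19.1% lower. The median difference of log2 fold changes was 0.48 over the members. MKI67 had the largest, 1.13 ± 0.10 (limma adjusted p = 1.0e-05), followed by AURKB (0.80) and ANLN (0.80). CCNB1 (0.04 ± 0.16), BIRC5, BUB1 and CDC20 did not pass.

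JQ-1 alone raised some members and lowered others, as it did many of all genes tested. By FPKM 21 of 49 rose and 17 fell, where 32.5% of the 12203 genes tested rose and 42.6% fell. By counts 9 rose and 6 fell of 44, where 22.8% of the 11332 genes tested rose and 23.9% fell. All 15 called in counts were called by FPKM in the same direction. The median log2 fold change was 0.08 by FPKM and 0.11 by counts.

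Among those that fell, UBE2C, the ubiquitin-conjugating enzyme of the anaphase-promoting complex, went from 17.9, 17.98 and 21.1 FPKM to 11.2, 10.4 and 8.16 FPKM (-0.88 ± 0.11, limma adjusted p = 9.4e-05). FOXM1 fell from 20.8, 22.3 and 21.6 FPKM to 12.1, 12.1 and 12.4 FPKM, and SMC2, the condensin partner of SMC4, fell from 5.33, 5.08 and 5.42 FPKM to 3.003, 3.03 and 3.07 FPKM. In none of the 3 did the groups overlap. AURKA (-0.53), ESPL1, NDC80, BUB1B and CDCA5 fell too.

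Among those that rose, CDC20 went from 19.98, 22.7 and 20.5 FPKM to 37.3, 37.7 and 36.2 FPKM (0.79 ± 0.05; in counts 0.81 ± 0.13). BUB1 rose from 5.85, 5.85 and 6.06 FPKM to 9.19, 8.24 and 8.57 FPKM. These groups did not overlap, and CENPE, a kinetochore kinesin (0.44), DLGAP5 (0.38), SMC4 (0.37) and TOP2A (0.34) rose in both fits. Members of 1 functional group moved in both directions. Of the 10 checkpoint and kinetochore members 4 rose and 4 fell, of the 6 members of the anaphase-promoting complex and sister separation group 2 rose and 4 fell, of 4 passenger complex members 3 fell, and of 6 kinesins 4 rose. BIRC5 fell by FPKM (-0.26) and did not pass in counts (0.09).

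Added to enzalutamide, JQ-1 lowered 28 members and raised 10 by FPKM, where 44.4% of the 12148 genes tested fell and 31.2% rose. By counts 14 of 46 fell and 5 rose, where 23.2% of the 10863 genes tested fell and 22.0% rose. UBE2C (-1.20), CDCA5 (-1.03), SMC2 (-0.94), FOXM1 (-0.93) and BUB1B (-0.83) fell most, in both fits. UBE2C stood at 29.8, 25.1 and 26.6 FPKM with enzalutamide and at 9.83, 11.9 and 12.1 FPKM with both agents. CDC20 (0.55), BUB1 (0.48) and DLGAP5 (0.46) rose. All 4 passenger complex members fell.

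Added to DHT, JQ-1 lowered 34 members and raised 5 by FPKM, where 43.3% of the 11856 genes tested fell and 35.5% rose. By counts 21 of 45 fell and 3 rose, where 28.0% of the 10779 genes tested fell and 26.7% rose. The median log2 fold change over the members was -0.41 by FPKM and -0.37 by counts. UBE2C fell from 29.4, 31.6 and 35.3 FPKM to 11.1, 13.5 and 12.3 FPKM (-1.32 ± 0.08), and CDCA5 fell from 12.1, 11.2 and 11.04 FPKM to 3.89, 4.43 and 4.25 FPKM (-1.26 ± 0.06). AURKB fell from 9.54, 8.30 and 8.62 FPKM to 3.10, 4.38 and 4.56 FPKM. The groups of these 3 genes did not overlap. MKI67 fell from 16.4, 17.3 and 16.2 FPKM to 10.2, 9.88 and 10.3 FPKM, and CDK1 from 78.6, 71.3 and 73.95 FPKM to 57.6, 61.2 and 55.9 FPKM, also without overlap. CENPE (0.36), PTTG1 (0.29), BUB1, DLGAP5 and CDC20 rose. NCAPG passed in opposite directions in the fits, both when JQ-1 was added to DHT (-0.53 by FPKM, 0.77 in counts) and to enzalutamide (-0.22 and 0.69).

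**Figure D5:**
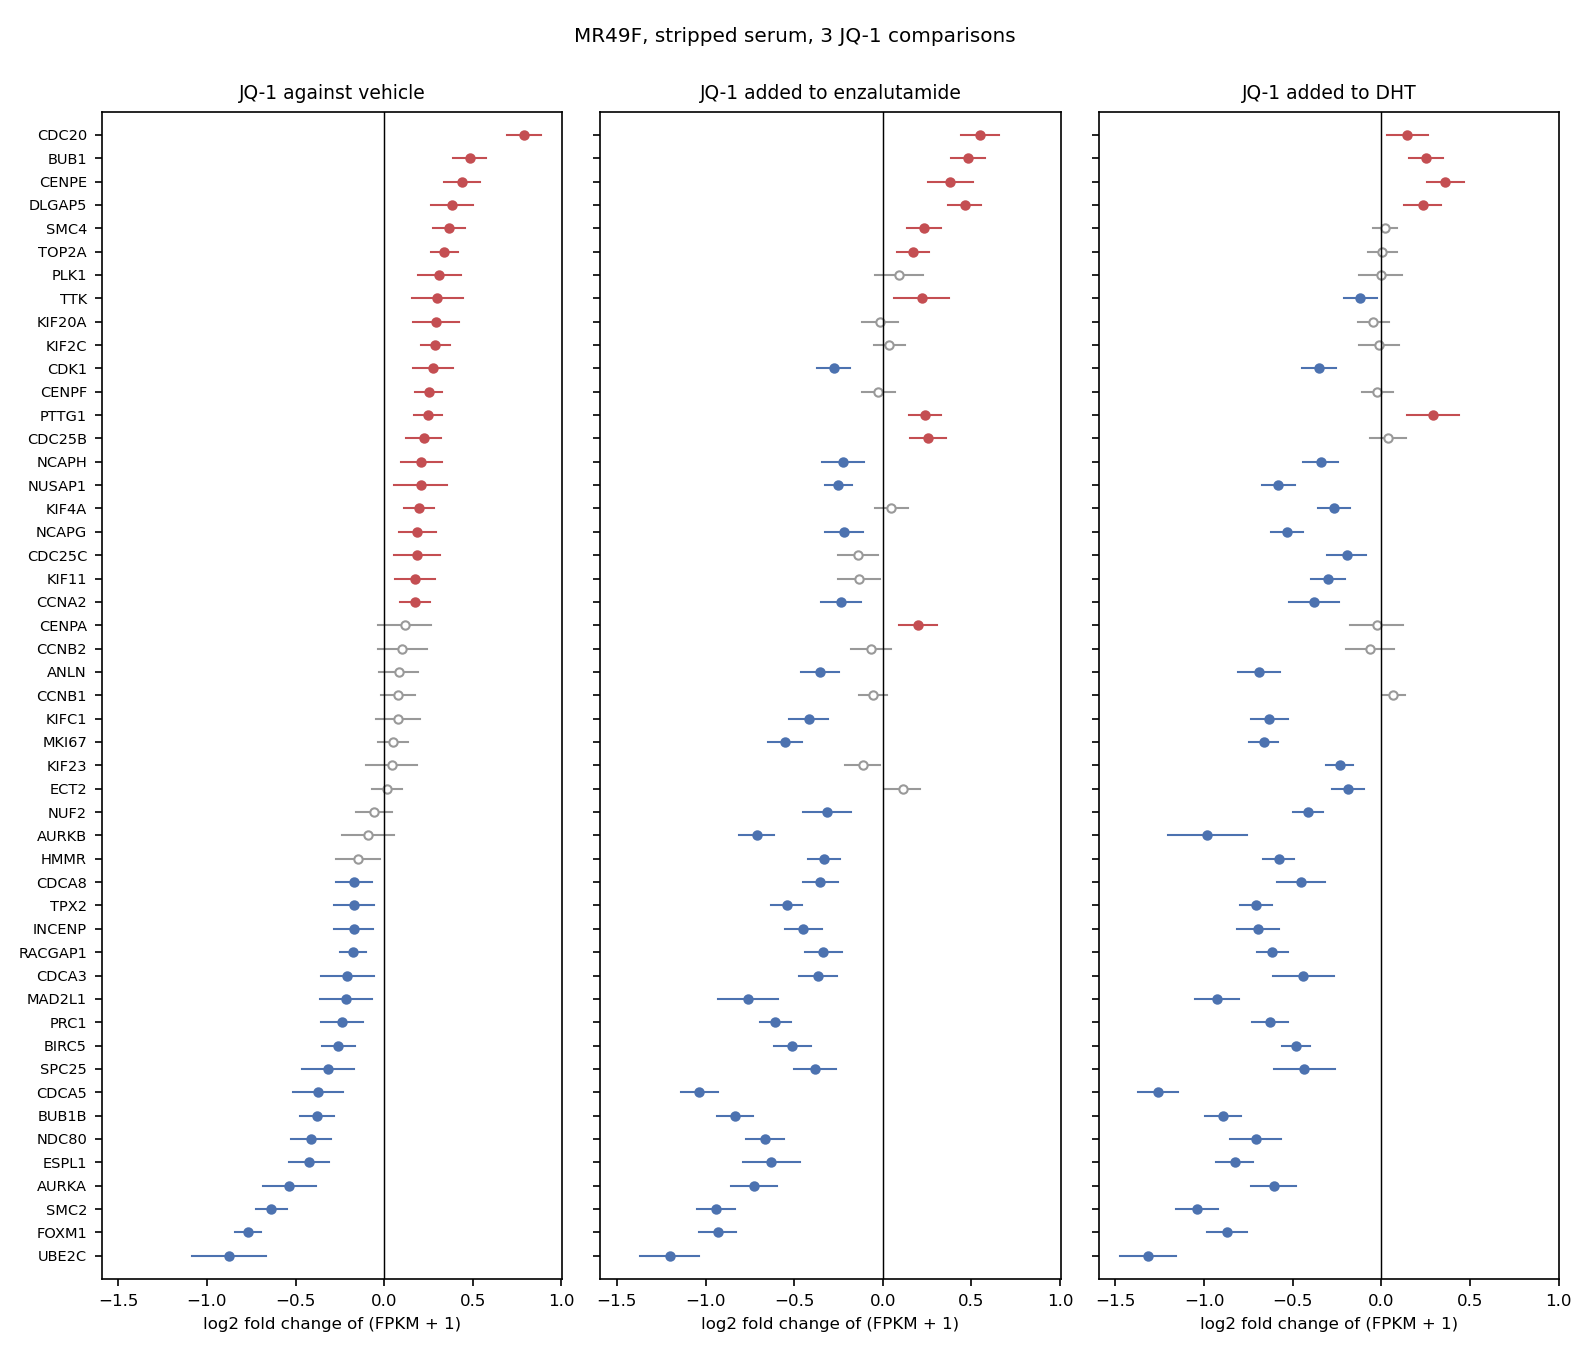
Log2 fold change of (FPKM + 1) (horizontal axis) for the 49 members (vertical axis) with JQ-1 against vehicle (left), JQ-1 added to enzalutamide (middle) and JQ-1 added to DHT (right), MR49F cells in stripped serum. Bars are 95% intervals; filled blue and red points passed, lower and higher, and open grey points did not; 17, 28 and 34 members fell.

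These 3 JQ-1 comparisons share no samples. By FPKM, 17 of 49 members fell in all 3, where 32.2% of the 11627 genes tested in all 3 did: AURKA, UBE2C, ESPL1, CDCA5, CDCA3, BUB1B, MAD2L1, NDC80, SPC25, INCENP, BIRC5, CDCA8, TPX2, PRC1, RACGAP1, SMC2 and FOXM1. The share of members that fell in all 3 was close to that of all genes. The 17 were all the members that fell with JQ-1 alone. Over all genes, 5204 of 12203 fell with JQ-1 alone, and 3747 of 11627 fell in all 3. CDC20, PTTG1, BUB1, CENPE and DLGAP5 rose in all 3, where 25.0% of those genes did. The 9 members CDK1, CCNA2 (cyclin A2), CDC25C, TTK, KIF11, KIF4A, NUSAP1, NCAPG and NCAPH rose with JQ-1 alone and fell when it was added to DHT, a pattern of 1.82% of those genes. The cyclin B genes CCNB1 and CCNB2 passed in none of the 3.

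In the presence of JQ-1, enzalutamide gave 14 members higher and 0 lower by FPKM, where 6.38% of the 11747 genes tested were higher and 9.49% lower. By counts 2 of 45, NCAPG and MKI67, were higher and 0 lower, where 3.16% of the 10708 genes tested were higher and 1.34% lower. The count was 0 without JQ-1 replicate 2 or 3 or the combination's replicate 1 or 3, and the FPKM count was 2 without JQ-1 replicate 2, 3 without the combination's replicate 2, 6 without its replicate 1 or JQ-1 replicate 3, and 9 without JQ-1 replicate 1. CENPA, the centromere histone, led by FPKM (0.32), from 3.92, 4.21 and 3.95 FPKM with JQ-1 to 5.15, 5.40 and 5.22 FPKM with both. NCAPG (0.22) also passed by FPKM, and MKI67 did not (0.13, limma adjusted p = 0.075). Stripped-serum counts of NCAPG, which overlaps LCORL on the other strand, may hold reads of that gene in this comparison and the next. DHT in the presence of JQ-1 gave 12 members higher and 2 lower by FPKM, where 17.2% of the 11709 genes tested were higher and 36.1% lower. By counts 3 of 44, CDK1, MKI67 and NCAPG, were higher and 0 lower, where 12.3% of the 10847 genes tested were higher and 9.83% lower. Without JQ-1 replicate 1 the count was 5, and without JQ-1 replicate 2 the FPKM count was 7. CDK1 rose from 39.2, 36.5 and 36.1 FPKM to 57.6, 61.2 and 55.9 FPKM (0.63 ± 0.05), without overlap, while CDC25B (-0.28) and CDC20 (-0.22) fell. The enzalutamide and DHT comparisons here share the samples with JQ-1 alone.

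Whether the response to JQ-1 differed with a ligand present was tested as an interaction, the JQ-1 log2 fold change with the ligand minus that without. With enzalutamide it passed as lower in 24 members and higher in 0 by FPKM, where 11.6% of the 12454 genes tested were lower and 7.55% higher. By counts 1 of 48 was lower and 0 higher, where 0.404% of the 11625 genes tested were lower and 0.490% higher. That member was MKI67, at -0.57 ± 0.12 in counts and -0.60 ± 0.06 by FPKM. With DHT it passed as lower in 38 members and higher in 0 by FPKM, where 23% of the 12469 genes tested were lower and 25.0% higher. By counts 7 of 46 were lower and 0 higher, where 6.55% of the 11572 genes tested were lower and 5.79% higher. That count was 3 without vehicle replicate 1 and 4 without JQ-1 replicate 3, DHT replicate 3 or replicate 1 of DHT with JQ-1. AURKB (-0.89), CDCA5 (-0.89), NUSAP1 (-0.79) and ANLN (-0.77) had the largest FPKM values with DHT. FOXM1, PTTG1 and CENPE did not pass by FPKM with either ligand. Both interactions share the vehicle samples and the samples with JQ-1 alone, so they are not separate evidence.

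Over the stripped-serum conditions the summed FPKM of the members was 515 ± 19.7 (SD, n = 3) with vehicle, 680.1 ± 14.2 with enzalutamide, 739 ± 13.6 with DHT, 539.9 ± 7.17 with JQ-1, 591 ± 11.8 with enzalutamide and JQ-1, and 584 ± 18.6 with DHT and JQ-1. The samples with enzalutamide (666 to 694) and with DHT (729 to 754) overlapped no other stripped-serum condition. In full serum the sum was 2138 ± 33.3 and 2064 ± 52.7 in V16D cells with vehicle and enzalutamide, and 1715 ± 41.8 and 1602 ± 24.2 in MR49F cells. The summed FPKM of all genes also differed between conditions. As mean shares of it, the members made 0.408% and 0.371% in V16D cells and 0.239% and 0.191% in MR49F cells in full serum. In stripped-serum vehicle samples they made 0.126%.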

How the data were processed

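RNA-seq was done with a strand-specific kit in 10 conditions of 3 samples. The authors deposited raw read counts per gene from HTSeq and FPKM values from Cufflinks 2.1.1 after TopHat2 2.0.9 alignment, per the submitters' processing notes. How strand was set in HTSeq is not given in the sources used here. Reads outside genes were left out of library sizes and tests. The members and gene lists were chosen with earlier results of these data known. Counts were tested with edgeR 4.0.16 (R 4.3.3; TMM scaling, filterByExpr with a minimum count of 10, quasi-likelihood test, the compared groups only). FPKM was tested with limma 3.58.1 on log2(FPKM + 1), for genes at 1 FPKM or more in 3 samples, with no further scaling between samples. By FPKM the median log2 fold change over all genes ranged from -0.08 (DHT in stripped serum) to 0.04 (enzalutamide in MR49F cells in full serum). The bearing of these shifts on the calls was not tested. All p-values were adjusted over all genes by Benjamini-Hochberg, with a threshold of 0.05. Limma on FPKM was planned as an alternative and was made a result of its own after the stripped-serum counts had been seen. The 12 members plotted by sample, the 5 members and 4 other mitosis genes of largest change per comparison, and members chosen after their values were seen are named. In no comparison did samples of the same replicate number correlate, for all 3 numbers, above the limit set for pairing. The main fits were therefore unpaired, and groups of 3 samples cannot exclude pairing. Stripped-serum depth was a median of 1484867 reads on genes against 16248903 in full serum. Scripts were tested on simulated data. Alternatives were DESeq2 1.42.0, other filters, pseudocounts, a single fit over all groups, an equal-variance test, a replicate block and leaving out each sample. Promoter windows are from RefSeq. 1 item of the study is not reported here.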

Additional observations from a re-analysis of the deposited data

Results flagged for a closer look

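The response of members to JQ-1 differed between settings by a test of the difference itself, in many members by FPKM and in few by counts. The tests with enzalutamide and with DHT share the vehicle samples and the samples with JQ-1 alone, so they are not separate evidence. With enzalutamide present, 1 member of 48 passed the interaction test in counts and 24 of 49 by FPKM, all lower with the ligand, where 0.404% and 11.6% of all genes were lower. With DHT present, 7 of 46 passed in counts and 38 of 49 by FPKM, all lower, where 6.55% and 23% of all genes were lower. The response to enzalutamide in MR49F cells also differed between stripped and full serum, in 40 of 49 members by FPKM, all higher in stripped serum, where 14.9% of all genes were higher. That comparison was added after the data had been seen, and serum and experiment cannot be told apart in it. Groups of 3 samples are too small for a test of single outlying samples. MR49F full-serum vehicle replicate 1, which enters the serum comparison, differed most from its fellow replicates (chi-square per degree of freedom 9.9 and 11.6).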

How the results depend on the processing

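Values here are numbers of members called, and the cause of each change was not tested. In V16D cells under enzalutamide the count of 33 became 13 in a single fit over all groups, 12 by limma on FPKM with a pseudocount of 1 or 0.1, 13 with no FPKM filter and 8 by an equal-variance test. In MR49F cells in full serum 12 became 23 in the single fit, 4 by limma with either pseudocount, 2 with no FPKM filter and 3 by the equal-variance test. The line interaction went from 0 to 2 with no count filter. For enzalutamide in stripped serum, 6 became 2 by DESeq2, 46 by limma with either pseudocount, 39 with no FPKM filter and 1 by the equal-variance test. In the same order DHT gave 15, 45, 43 and 12, JQ-1 gave 9, 38, 34 and 8, and JQ-1 added to enzalutamide gave 12, 38, 37 and 12. JQ-1 added to DHT gave 14 by DESeq2, 39 by limma (38 with a pseudocount of 0.1), 37 with no FPKM filter and 13 by the equal-variance test. DHT against enzalutamide gave 2 by DESeq2, 21 by limma and 18 with no FPKM filter. Enzalutamide under JQ-1 gave 0 with no count filter, in the single fit, by DESeq2 and by the equal-variance test, 14 by limma, 4 with no FPKM filter and 1 without the members that overlap a gene of the other strand. DHT under JQ-1 gave 14 by limma and 10 with no FPKM filter. The JQ-1 interactions gave 24 and 20 with enzalutamide, and 38 and 37 with DHT, where DESeq2 gave 1.

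BIRC5 under JQ-1 went from 0.09 in counts to -0.26 by limma on FPKM with and without the filter, and to -0.27 with a pseudocount of 0.1. Pairing by replicate number was not detected and is not excluded. With a replicate block, the count fit gave 11 members for enzalutamide in stripped serum, and the FPKM fit gave 5 for V16D enzalutamide and 0 for MR49F enzalutamide in full serum; the other counts stayed within 1.5 times. Leaving out 1 library at a time gave, by counts and by FPKM, 24 to 33 and 4 to 10 for V16D enzalutamide, 0 to 26 and 0 to 10 for MR49F enzalutamide in full serum, 34 to 40 and 32 to 38 for MR49F against V16D, 0 to 7 and 0 to 0 for the line interaction, 2 to 7 and 38 to 42 for enzalutamide in stripped serum, 18 to 23 and 42 to 43 for DHT, 2 to 5 and 12 to 19 for DHT against enzalutamide, 13 to 15 and 33 to 36 for JQ-1, 14 to 20 and 38 to 39 for JQ-1 added to enzalutamide, 18 to 24 and 36 to 38 for JQ-1 added to DHT, 0 to 2 and 2 to 14 for enzalutamide under JQ-1, 3 to 5 and 7 to 14 for DHT under JQ-1, 1 to 1 and 19 to 25 for the JQ-1 by enzalutamide interaction, 3 to 8 and 36 to 39 for the JQ-1 by DHT interaction. The serum by enzalutamide interaction ranged from 37 to 45.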
